A study of Homo sapiens with 8 samples.

Results

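The immediate early and MAPK feedback genes are 38 genes that cells switch on quickly after growth factor, stress or receptor signals, or that damp those signals again. They were selected by symbol from the count table of an RNA sequencing study of HepG2, an established human hepatocellular carcinoma cell line. The table held 24462 genes after rows of 1 symbol were summed, and all 38 symbols were in it. The symbols cover the AP-1 genes (7), EGR (3), KLF (4), DUSP (5), SPRY and SPRED (5), IER (3), NR4A (2), mRNA decay factors (2), ETV factors (2) and 5 further targets. A mock group of 4 libraries was compared with a group of 4 libraries that overexpressed EDN1, the gene for the precursor of endothelin-1. All cells grew in serum-containing DMEM with antibiotics, with no further treatment. The labels say neither what the mock cells received nor how EDN1 was introduced or how many clones were used. Nor do they call the libraries of a group separate cultures. The p-values therefore measure the spread between these libraries only, and that spread may be technical.

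As background, receptor tyrosine kinases and many G protein-coupled receptors, the endothelin receptors among them, feed into the RAS, RAF, MEK and ERK kinase cascade. ERK activates ETS-type partners of serum response factor, and FOS, EGR1, IER2 and their kind are then transcribed without new protein synthesis. Their mRNAs are short-lived, and ZFP36 proteins speed the decay of many such mRNAs. DUSP phosphatases take the phosphate off ERK, JNK or p38, and Sprouty and SPRED proteins act higher up, at the level of RAS and RAF. In liver, this set of genes is known for its brisk response to partial hepatectomy and to growth factors.

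Promoter stretches are shown for 6 members, picked by known role or by their values. EGR1 and SRF are classical targets of serum response factor whose fold changes had opposite sign, and DUSP1 is a classical cyclic AMP target. KLF2, FOSL2 and SPRED1 are the members whose groups did not overlap. None of the 6 passed the test described below, so their values are not shown to differ. Each run is the 250 bases before the gene's first RefSeq start in build GRCh38.p14, read 5′ to 3′ on the gene's own strand. Of the 38 members, 27 had an entry in the promoter table and 11 had none (DUSP4, DUSP5, EGR3, ETV4, ETV5, FOSL1, IER3, KLF10, MCL1, MYC and NR4A2). Capitals mark matches on either strand to the CArG box (the serum response factor element), TGACGTCA (the cyclic AMP response element), TGAGTCA (the AP-1 element), GCGNGGGCG (an EGR-type element) and CCGGAAG (an ETS-type element). The EGR1 stretch is chr5:138465229-138465478 and the SRF stretch is chr6:43171019-43171268, both on the plus strand.
EGR1: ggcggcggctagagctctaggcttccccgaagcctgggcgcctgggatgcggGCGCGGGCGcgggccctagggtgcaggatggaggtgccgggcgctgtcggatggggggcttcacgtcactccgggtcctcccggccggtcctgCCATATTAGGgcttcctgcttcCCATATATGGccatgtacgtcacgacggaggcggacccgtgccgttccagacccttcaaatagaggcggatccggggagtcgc
SRF: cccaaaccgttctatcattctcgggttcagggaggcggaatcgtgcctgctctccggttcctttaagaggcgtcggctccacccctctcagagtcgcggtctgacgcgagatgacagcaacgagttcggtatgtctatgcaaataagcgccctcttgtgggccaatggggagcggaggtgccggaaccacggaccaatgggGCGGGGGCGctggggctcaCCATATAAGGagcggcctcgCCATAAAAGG
The DUSP1 stretch is chr5:172771196-172771445 on the minus strand, and those of KLF2, FOSL2 and SPRED1 are chr19:16324576-16324825, chr2:28392608-28392857 and chr15:38252586-38252835, all on the plus strand.
DUSP1: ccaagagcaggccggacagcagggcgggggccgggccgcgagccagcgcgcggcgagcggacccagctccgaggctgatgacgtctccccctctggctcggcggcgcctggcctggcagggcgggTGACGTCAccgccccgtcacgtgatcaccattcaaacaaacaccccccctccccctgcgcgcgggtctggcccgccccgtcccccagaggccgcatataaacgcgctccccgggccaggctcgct
KLF2: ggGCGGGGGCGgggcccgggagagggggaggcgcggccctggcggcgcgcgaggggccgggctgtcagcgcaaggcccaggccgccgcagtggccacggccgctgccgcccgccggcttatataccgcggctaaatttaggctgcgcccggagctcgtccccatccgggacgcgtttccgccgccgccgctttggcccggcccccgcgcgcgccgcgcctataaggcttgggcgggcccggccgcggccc
FOSL2: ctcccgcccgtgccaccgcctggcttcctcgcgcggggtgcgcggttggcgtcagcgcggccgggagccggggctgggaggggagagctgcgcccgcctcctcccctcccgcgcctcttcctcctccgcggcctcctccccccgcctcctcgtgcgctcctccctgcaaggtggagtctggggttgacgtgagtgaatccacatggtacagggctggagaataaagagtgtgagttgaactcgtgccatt
SPRED1: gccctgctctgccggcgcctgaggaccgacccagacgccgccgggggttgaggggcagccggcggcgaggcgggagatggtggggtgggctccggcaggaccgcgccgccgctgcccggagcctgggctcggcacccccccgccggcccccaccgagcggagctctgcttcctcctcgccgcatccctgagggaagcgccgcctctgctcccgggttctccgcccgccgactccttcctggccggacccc

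The CArG boxes of EGR1 begin 105 and 83 bases before the start, and those of SRF 30 and 10 bases before it. EGR1 and SRF were the 2 of 27 member promoters with a CArG box (7.41%), against 1.15% of 27305 promoters of all genes. The cyclic AMP element was in DUSP1 (125 bases before the start), EPHA2 and JUND (11.1%, against 1.75%). The EGR-type element was in 8 of the 27 (29.6%, against 8.23%), namely DUSP2, EGR1, KLF2, KLF4, KLF6, SPRY2, SPRY4 and SRF. The ETS-type element was in IER2 alone (3.70%, against 8.78%), and the AP-1 element in 0 of the 27, against 4.15%. The EGR-type element and the CArG boxes did not overlap in the stretches shown. These are exact letter matches in a window of 250 bases, described as such. Elements outside the window, or with other letters, were not looked for, so a member without a match may still have one.

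Mock libraries had total counts between 8409173 and 14932385, and EDN1 libraries between 8571252 and 11686180. EDN1 itself checked the labels: it had 29, 9, 9 and 20 counts in mock 1 to 4 and 2803, 2284, 4764 and 4752 in EDN1 1 to 4. Levels of single genes are given as CPM, a gene's count as a share of the library's total after TMM scaling (a method that corrects totals for a few dominant genes). CPM compares a gene between libraries, not genes with each other. EDN1 stood at 228, 259, 418 and 549 CPM in EDN1 1 to 4, which is 7.92 higher than mock on the log2 scale (SE 0.41; edgeR, adjusted p = 1.68e-05). No library had more than 2 counts of the endothelin receptor gene EDNRA, and EDNRB had 0 throughout. All 12 hepatocyte markers were detected, among them ALB at 535 CPM and APOB at 4428 CPM in mock. Markers of fibroblasts summed to at most 8.81 CPM and those of endothelium to at most 0.924 CPM in any library, with LUM, CD3E and CFTR at 0 counts throughout. Mock 4, EDN1 3 and EDN1 4 were known from earlier results of these counts to stand apart from the other 5 libraries, although no label gives a batch. Across all tested genes, which are not independent replicates, the deviations of mock 4 from its group mean correlated with those of EDN1 3 (r = 0.52) and EDN1 4 (0.53), and inversely with those of EDN1 1 (-0.63) and EDN1 2 (-0.65); deviations within a group sum to 0. Against EDN1 1 to 4, mock 1 had r of 0.48, 0.22, 0.11 and -0.61, and mock 3 had 0.38, 0.43, -0.15 and -0.47. Mock 2 had -0.07, 0.15, -0.52 and 0.35, so its highest r was with EDN1 4. The sets were drawn from these same counts, so these correlations do not test them. The first library set below is mock 1 to 3 with EDN1 1 and 2, the second is mock 4 with EDN1 3 and 4.

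The comparison asked whether EDN1 overexpression shifted these genes. Of the 38 members, 33 passed the filter on low counts and were tested among 12577 genes. With p-values from the quasi-likelihood test of edgeR, adjusted over all genes by Benjamini-Hochberg, 0 of the 33 passed the threshold of 0.05, where 0.00795% of all tested genes (EDN1 alone) did. DESeq2 and limma voom also called 0 members. Every tested member had an adjusted p of 0.9999 in this edgeR test, and the smallest unadjusted p was 0.0247 (KLF2). At an unadjusted p under 0.05 there were 3 members, all with lower values in EDN1 overexpression, against 0.827% of all tested genes in that direction. These were KLF2, FOSL2 and SPRED1, and the same 3 were the members whose 4 EDN1 libraries all lay below the 4 mock libraries, which held for 0.668% of all tested genes. In the other direction 0 members had an unadjusted p under 0.05, against 2.03% of all tested genes, and 0 were separated, against 1.38%. In a bulk sample, fewer cells that express a gene and less of its RNA per cell cannot be told apart. The count of 3 at an unadjusted p under 0.05 was 0 without EDN1 3, 1 without EDN1 1, 8 without EDN1 2 and 4 without EDN1 4. Over all tested genes the count moved as well, from 359 with all libraries to 184, 229, 641 and 738 in these fits. The count of members was 2 without mock 1 or mock 2, with 316 and 358 of all tested genes. It stayed at 3 without mock 3 or mock 4, with 220 and 576 of all tested genes.

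Most fold changes were negative all the same. Log2 fold changes of EDN1 overexpression over mock were below 0 in 28 of the 33 tested members, against 49.7% of all tested genes. Their median was -0.31, against 0.00 over all tested genes, and they ran from -1.04 (KLF2) to 0.37 (FOSB). FOSB passed the low count filter mainly through EDN1 libraries, so the upper end of this range is not independent of the filter. The median was -0.19 without EDN1 1 and -0.22 without mock 1, while it was -0.44 without EDN1 2. In the first library set alone 29 of the 33 members were negative and in the second alone 26, and 26 were negative in both. Members vary together and are not replicates, so these counts do not show that a shift was repeated. Each set also holds 1 EDN1 library with a low mean level of the members, EDN1 1 (-0.41) and EDN1 3 (-0.49). EDN1 2 (0.17) and EDN1 4 (0.10) were not low. The second set has 1 mock library, whose spread is assumed to be that of the EDN1 libraries. The 95% intervals, which are not adjusted for the number of genes, kept 31 of the 33 members under a 2-fold higher level (FOS and FOSB reached above it). They kept 27 under a 1.5-fold higher level, and reached past a 2-fold lower level in 11.

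**Figure D1:**
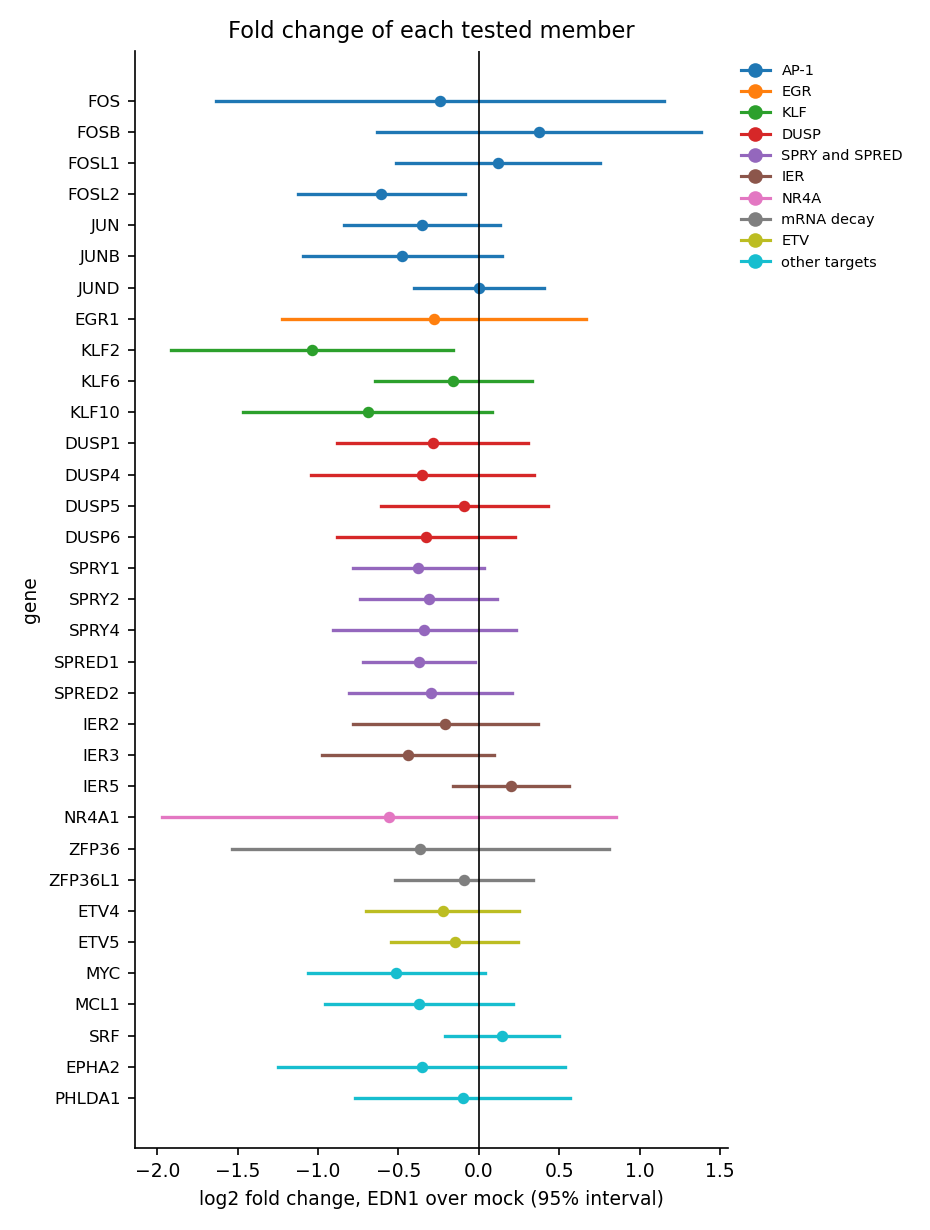
Log2 fold change (EDN1 overexpression over mock, x axis) of the 33 tested members (y axis), as points with 95% intervals from edgeR, coloured by gene group. 28 points lie left of 0, and only the intervals of KLF2, FOSL2 and SPRED1 do not cross it.

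**Figure D2:**
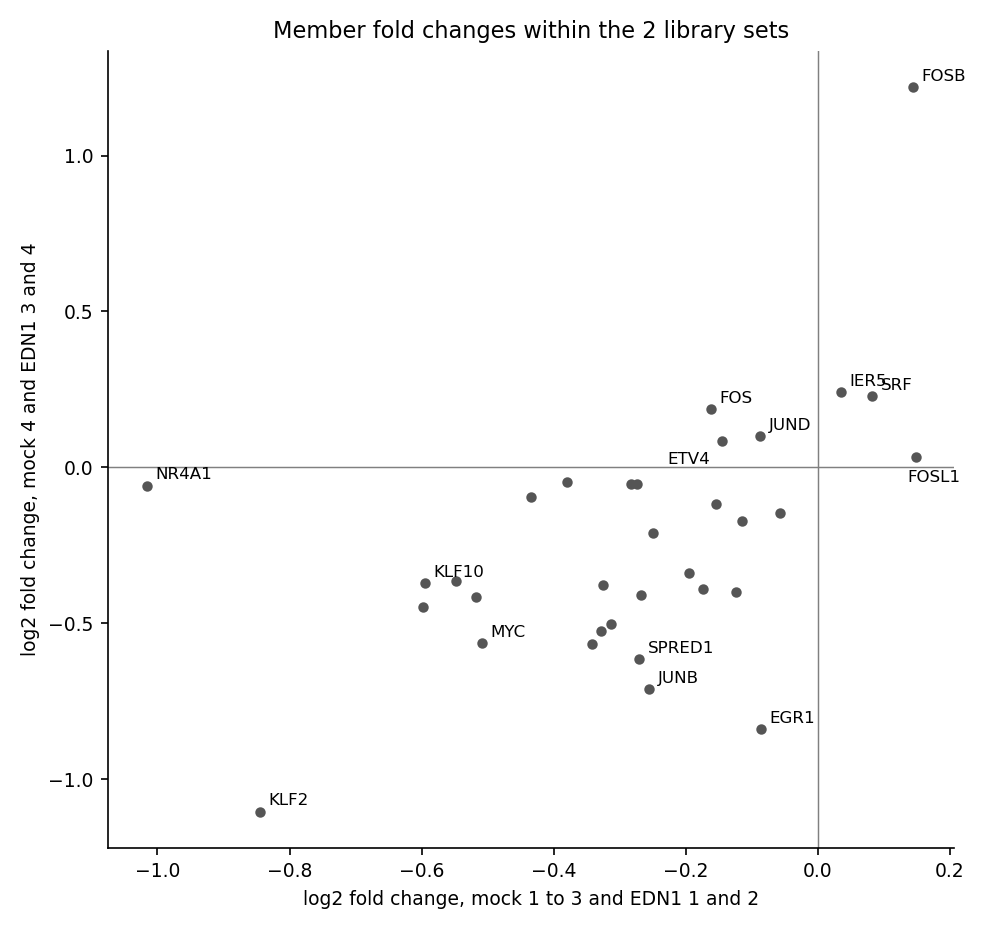
Log2 fold changes of the 33 tested members in the first library set (x axis, mock 1 to 3 and EDN1 1 and 2) and within the second (y axis, mock 4 and EDN1 3 and 4). 26 members lie at the lower left, 4 (FOSB, FOSL1, IER5 and SRF) in the upper right, and FOS, ETV4 and JUND differ in sign between the sets.

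The 4 EDN1 libraries did not look alike. Each member's log2 CPM was set relative to its own 8-library mean and then averaged over the 33 members. This level was 0.34, 0.03, 0.14 and 0.12 in mock 1 to 4. In EDN1 1 to 4 it was -0.41, 0.17, -0.49 and 0.10, so EDN1 2 and EDN1 4 lay within the mock range and EDN1 1 and EDN1 3 below it. EDN1 1 lay below every mock library in 19 of 33 members and EDN1 3 in 20, where 18.4% and 23.5% of all tested genes did so. The counts were 7 for EDN1 2 and 9 for EDN1 4, against 12.6% and 22.8% of all tested genes. The EDN1 gene itself was at 228, 259, 418 and 549 CPM in EDN1 1 to 4, lower in the first library set than in the second. A link between its level and the levels of the members was not tested. Marker genes of other cell types also stood apart in EDN1 1 and EDN1 3, in both directions. The summed biliary markers were 853 and 881 CPM there and 561 to 690 CPM in the other 6 libraries, and KRT19 was the tested marker above the other 6 in both (629 and 712 CPM, against 258 to 411 CPM). SOX9 went the other way, at 154 and 114 CPM against 199 to 279 CPM, EPCAM was at 70.0 and 53.9 CPM against 53.98 to 71.0 CPM, KRT7 had at most 4 counts and CFTR 0. The summed blood and immune markers, nearly all of it LYZ, were 372 and 393 CPM in EDN1 1 and EDN1 3, 411 CPM in mock 1 and 606 to 829 CPM in the other 5. The summed fibroblast markers were 3.99 and 4.91 CPM in EDN1 1 and EDN1 3 and 5.19 to 8.81 CPM in the other 6. Within them PDGFRB was lower, at 1.06 and 1.14 CPM against at least 3.67 CPM, and COL1A1 was higher, at 2.93 and 3.42 CPM against 0.227 to 2.81 CPM, with LUM and THY1 at 0 counts. The summed hepatocyte markers of EDN1 1 and EDN1 3, 7742 and 8530 CPM, lay within the 7547 to 10470 CPM of the other 6. APOB, the largest part of this sum, was at 3694 and 5052 CPM, against 3159 to 5312 CPM. ALB was lower in both, at 344 and 348 CPM against 366 to 881 CPM. So were FGB (12.8 and 15.5 CPM, against 15.9 to 38.3 CPM) and FGG (39.5 and 33.3 CPM, against 53.8 to 71.9 CPM). The remaining hepatocyte markers were not outside the range of the other 6 in both. The part of these differences in the members' values was not tested. Total counts of EDN1 1 and EDN1 3 lay inside the range of the other libraries.

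**Figure D3:**
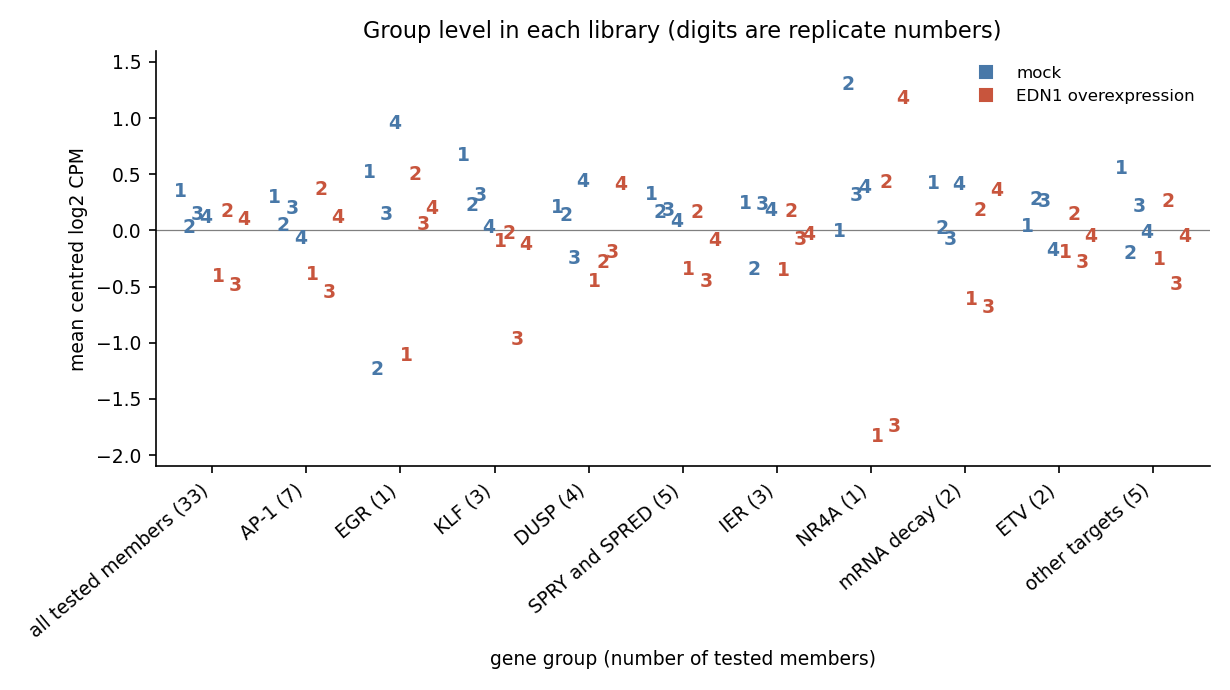
Mean centred log2 CPM (y axis) of all tested members and of each gene group (x axis) in each library; digits are replicate numbers, blue for mock and red for EDN1 overexpression. Over all 33 members EDN1 1 (-0.41) and EDN1 3 (-0.49) lie below the mock libraries and EDN1 2 (0.17) and EDN1 4 (0.10) among them; in the KLF group the 4 EDN1 values all lie below mock.

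The AP-1 genes encode the FOS and JUN proteins, which pair up to bind the AP-1 element. Of the 7 tested genes 4 had negative log2 fold changes, with a median of -0.24, and 0 passed the test. FOSL2, a FOS relative that persists longer than FOS, was at 11.5, 16.4, 9.39 and 9.81 CPM in mock 1 to 4 and at 7.40, 9.07, 5.96 and 8.55 CPM in EDN1 1 to 4. The groups did not overlap, though EDN1 2 was close to mock 3. Its log2 fold change was -0.61 (SE 0.23, 95% interval -1.12 to -0.09). The first library set gave -0.60 and the second -0.45.

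JUNB, a JUN protein that also restrains JUN, was at 150, 81.6, 101 and 104 CPM in mock and at 59.5, 127, 55.3 and 72.8 CPM in EDN1 1 to 4. EDN1 2 was higher than 3 of the mock libraries, and the other EDN1 libraries were below all of them. JUNB differed by -0.48 on the log2 scale (SE 0.28), by -0.28 without mock 1 and by -0.81 without EDN1 2. JUN, the central partner in the AP-1 dimer, was at 418, 209, 287 and 350 CPM in mock and at 197, 294, 232 and 265 CPM in EDN1 overexpression, a log2 fold change of -0.36 (SE 0.22). Its groups overlapped, since mock 2 was the second lowest of all 8 libraries. JUND, the JUN gene least tied to stimulation, was at 185, 219, 191 and 191 CPM in mock and at 147, 227, 166 and 247 CPM in EDN1 overexpression. Its log2 fold change was 0.00 (95% interval -0.40 to 0.40), and EDN1 1 and 3 lay below the mock range and EDN1 2 and 4 above it.

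FOS, the best known immediate early gene, had few reads, with 34, 27, 28 and 22 counts in mock and 11, 42, 4 and 28 in EDN1 overexpression. In CPM this was 2.65, 3.33, 3.25 and 1.52 in mock and 0.895, 4.76, 0.351 and 3.23 in EDN1 1 to 4. The highest and the lowest of the 8 libraries were thus both EDN1 libraries, 13.6-fold apart, and the mock libraries were 2.19-fold apart. The log2 fold change of -0.24 (SE 0.63) was 0.14 without EDN1 3 and -0.88 without EDN1 2, and it was -0.16 and 0.19 within the sets. FOSB had 7 to 15 counts in each library and a log2 fold change of 0.37 (SE 0.45). FOSL1, which ERK activity keeps up in many tumour lines, ranged from 7.04 to 18.1 CPM in mock and from 9.35 to 18.0 CPM in EDN1 overexpression, with a log2 fold change of 0.12 (SE 0.29). FOS and EPHA2 fall outside the rule for genes given library by library and were added after their values were seen.

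Of the EGR genes, zinc finger factors that follow the same triggers as FOS, only EGR1 passed the filter. EGR1 was at 128, 37.8, 98.6 and 173 CPM in mock and at 41.1, 126, 92.5 and 102 CPM in EDN1 1 to 4. The groups overlapped fully: the lowest value was in mock 2 and the next in EDN1 1. For EGR1 the log2 fold change was -0.28 (SE 0.43, 95% interval -1.22 to 0.67), and it was 0.03 without mock 4 and -0.56 without mock 2. It was -0.09 in the first library set and -0.84 in the second. EGR2 had 0 to 11 counts and EGR3 0 to 8, and neither was tested. Where 0 reads were counted, up to 3 could have been missed by chance; this limit equals 0.207 CPM in the deepest library and 0.371 CPM in the shallowest, and it covers counting error only.

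KLF genes encode zinc finger factors with short-lived mRNAs, and all 3 that were tested had negative log2 fold changes (median -0.69, 0 passing the test). KLF2, best known from endothelium and lymphocytes, was at 2.19, 3.83, 2.09 and 2.00 CPM in mock and at 1.79, 1.13, 0.526 and 1.39 CPM in EDN1 1 to 4. The groups did not overlap, but the lowest mock library (2.00) and the highest EDN1 library (1.79) were close. This rested on 18 to 31 counts in mock and 6 to 22 in EDN1 overexpression. The log2 fold change was -1.04 (SE 0.40, 95% interval -1.91 to -0.16), the most negative of the members. It was -0.84 and -1.10 within the sets, -0.78 without EDN1 3 and -1.32 without EDN1 1.

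KLF10, also called TIEG, a gene that TGF-beta induces early, was at 164, 84.0, 126 and 70.9 CPM in mock and at 68.4, 97.3, 30.7 and 79.7 CPM in EDN1 overexpression. The groups overlapped, and EDN1 3 was far below the rest. This gave a log2 fold change of -0.69 (SE 0.35), -0.44 without mock 1 and -0.90 without EDN1 2. KLF6, a broadly expressed early response gene, was at 722, 329, 463 and 475 CPM in mock and at 420, 513, 422 and 428 CPM in EDN1 overexpression. Its log2 fold change of -0.16 (SE 0.22) was 0.08 without mock 1, the highest library, and -0.31 without mock 2, the lowest. KLF4 had 2 to 18 counts (0.766 CPM on average) and was not tested. The filter asks for about 10 counts, scaled for depth, in at least 4 libraries, and not for a mean level.

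The DUSP genes encode phosphatases that switch MAP kinases off and are themselves ERK targets. All 4 tested had negative log2 fold changes, with a median of -0.31, and 0 passed the test. DUSP6, the cytoplasmic phosphatase specific for ERK and a common readout of ERK activity, was at 767, 676, 583 and 937 CPM in mock and at 382, 562, 537 and 876 CPM in EDN1 1 to 4. EDN1 1 to 3 were below every mock library, and EDN1 4 was the second highest of the 8. Between the groups DUSP6 differed by -0.33 on the log2 scale (SE 0.25, 95% interval -0.88 to 0.22), which was -0.59 without EDN1 4 and -0.17 without EDN1 1. Mock 4 and EDN1 4, both of the second set, had the highest values of their groups. Within the sets the log2 fold change was -0.52 and -0.42.

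DUSP5, a nuclear phosphatase for ERK, was at 81.5, 89.9, 69.8 and 102 CPM in mock and 60.8, 62.7, 76.1 and 123 CPM in EDN1 overexpression, highest in mock 4 and EDN1 4 like DUSP6. Its log2 fold change was -0.09 (SE 0.23), 0.03 without EDN1 1 and -0.37 without EDN1 4. DUSP1, which acts mainly on p38 and JNK and responds to stress, was at 30.7, 14.2, 20.1 and 25.6 CPM in mock and at 15.0, 19.96, 14.03 and 25.8 CPM in EDN1 overexpression, a log2 fold change of -0.29 (SE 0.27). The groups of both genes overlapped. DUSP4, a nuclear relative, ranged from 6.03 to 16.8 CPM in mock and from 6.35 to 11.2 CPM in EDN1 overexpression (log2 fold change -0.35, SE 0.31). DUSP2, with 2 counts in mock 1, 1 in mock 4 and 0 elsewhere, was not tested.

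Sprouty and SPRED genes encode inhibitors of signalling from receptors to RAS and RAF. All 5 had negative log2 fold changes, from -0.38 (SPRY1) to -0.30 (SPRED2), with a median of -0.34, and 0 passed the test. SPRED1, which brings neurofibromin to RAS, was at 20.4, 18.3, 18.5 and 23.1 CPM in mock and at 14.2, 17.6, 14.6 and 15.7 CPM in EDN1 1 to 4. The groups did not overlap, with EDN1 2 nearest to mock, and the spread within groups was small. The log2 fold change was -0.37 (SE 0.16, 95% interval -0.72 to -0.03). It was -0.27 and -0.62 within the sets. Its within-group SD of 0.15 on the log2 scale lay at percentile 7.70 of the tested genes.

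SPRY1 was at 57.9, 47.9, 54.8 and 46.2 CPM in mock and at 34.6, 54.7, 34.5 and 35.7 CPM in EDN1 overexpression. EDN1 1, 3 and 4 lay together below every mock library, and EDN1 2 lay within the mock range. SPRY1 differed by -0.38 on the log2 scale (SE 0.18), by -0.31 without EDN1 3 and by -0.57 without EDN1 2. SPRY4, which ERK signalling induces, was at 43.6, 46.9, 37.6 and 34.8 CPM in mock and at 19.2, 44.3, 25.0 and 40.5 CPM in EDN1 overexpression (log2 fold change -0.34, SE 0.26). SPRED2 was at 20.7, 18.3, 21.3 and 18.4 CPM in mock and at 13.9, 21.9, 10.1 and 18.2 CPM in EDN1 overexpression (log2 fold change -0.30, SE 0.23). In SPRY4 and SPRED2 the values of EDN1 1 and EDN1 3 were well below mock and EDN1 2 and 4 near it. SPRY2, another Sprouty inhibitor, ranged from 10.5 to 15.5 CPM in mock and from 8.59 to 12.4 CPM in EDN1 overexpression (log2 fold change -0.31, SE 0.19).

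**Figure D4:**
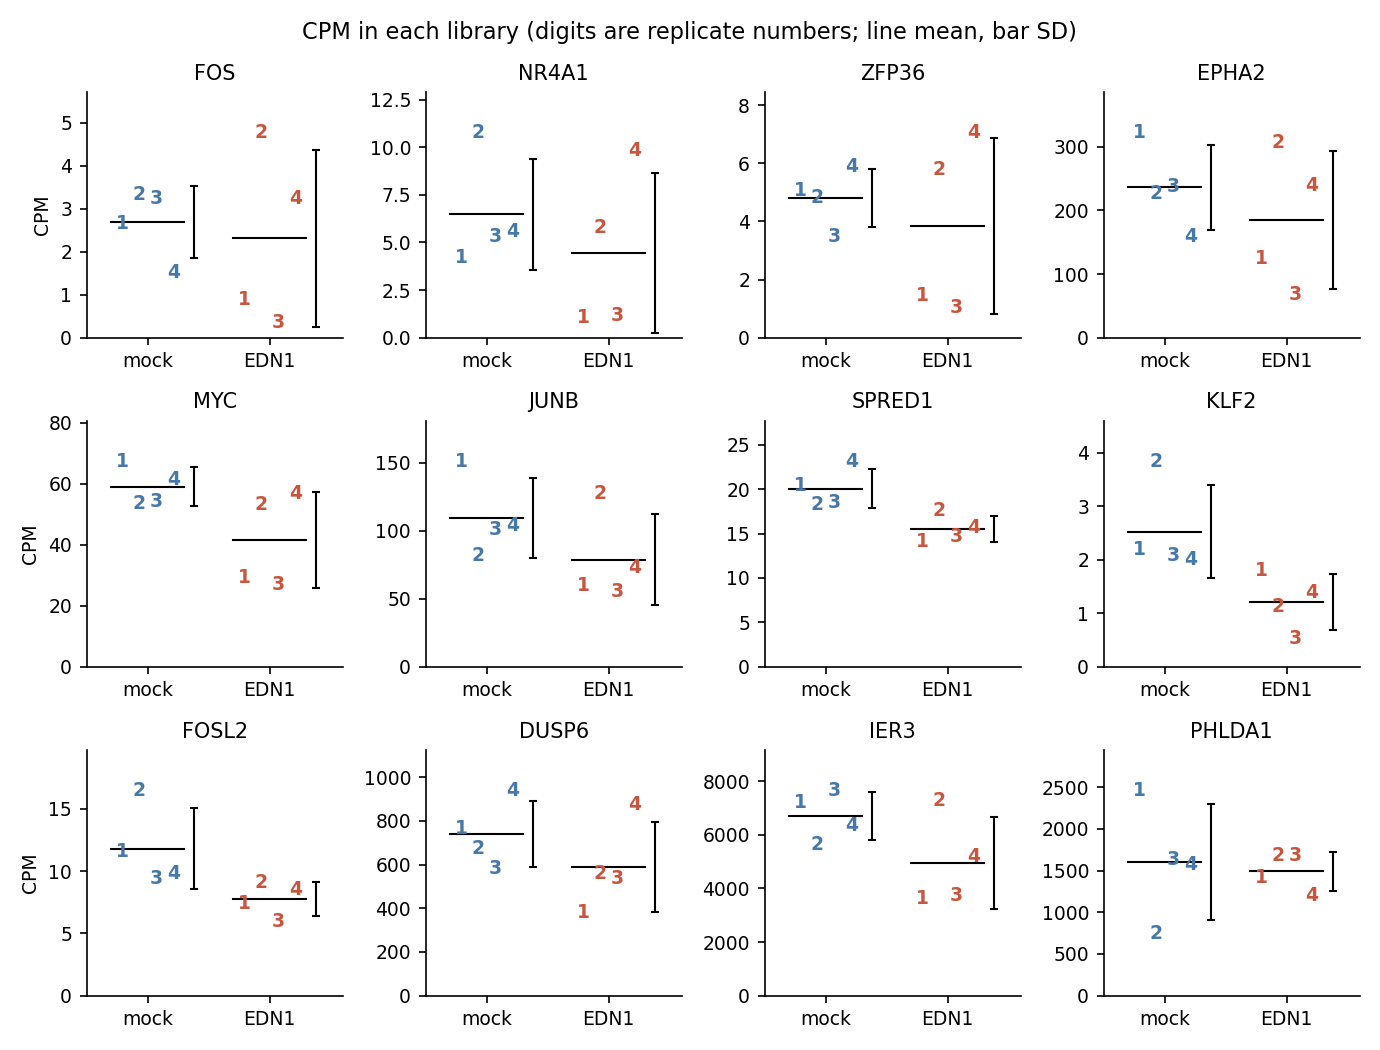
CPM (y axis, linear, from 0) of 12 members in the 4 mock (blue) and 4 EDN1 overexpression libraries (red), digits giving the replicate number, lines the mean and bars the SD (n = 4). In FOS, NR4A1, ZFP36 and EPHA2 the digits 1 and 3 of EDN1 overexpression lie below all mock values and 2 and 4 among or above them, and in MYC 1 and 3 lie far below mock and 2 just under it; in KLF2, FOSL2 and SPRED1 the groups are separate.

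Among the IER genes, early response genes named for their induction, IER3 and IER2 had negative log2 fold changes and IER5 a positive one, and 0 of 3 passed the test. IER3, which encodes a survival factor that ERK phosphorylates, was at 7217, 5640, 7636 and 6362 CPM in mock and at 3615, 7274, 3721 and 5183 CPM in EDN1 1 to 4. EDN1 1, 3 and 4 were below every mock library, and EDN1 2 was higher than all but mock 3. For IER3 the log2 fold change was -0.44 (SE 0.24, 95% interval -0.97 to 0.09), which was -0.32 without EDN1 1 and -0.69 without EDN1 2. IER3 stood on 6 rows of the table, of which 1 held all its counts. IER2, a nuclear early response factor, was at 592, 244, 469 and 501 CPM in mock and at 334, 464, 458 and 308 CPM in EDN1 overexpression (log2 fold change -0.21, SE 0.26). IER5 was at 70.3, 64.1, 81.5 and 82.0 CPM in mock and at 71.5, 76.0, 89.0 and 106 CPM in EDN1 overexpression (log2 fold change 0.20, SE 0.16). In both the groups overlapped, and mock 2 was the lowest library.

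NR4A1, an orphan nuclear receptor gene induced as fast as FOS, was at 4.21, 10.7, 5.33 and 5.60 CPM in mock and at 1.06, 5.78, 1.14 and 9.82 CPM in EDN1 1 to 4. EDN1 1 and EDN1 3, with 13 counts each, were far below every mock library, and EDN1 2 and 4 were higher than 3 of the 4. The log2 fold change was -0.56 (SE 0.64), -1.32 without EDN1 4 and -0.21 without mock 2, and it was -1.02 and -0.06 within the sets. NR4A2 had 1 to 16 counts and was not tested. ZFP36, the tristetraprolin gene, whose protein shortens the life of AU-rich mRNAs, was at 5.07, 4.82, 3.48 and 5.87 CPM in mock and at 1.46, 5.78, 1.05 and 7.04 CPM in EDN1 overexpression. EDN1 1 and EDN1 3 were the lowest of the 8 libraries and EDN1 4 the highest, and its log2 fold change was -0.36 (SE 0.53). Its relative ZFP36L1 had its highest EDN1 value in EDN1 3: it was at 830, 497, 594 and 706 CPM in mock and 626, 525, 761 and 552 CPM in EDN1 overexpression (log2 fold change -0.09, SE 0.19).

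ETV4 and ETV5 encode ETS factors that FGF and ERK signalling induce. ETV4 was at 119, 134, 132 and 75.5 CPM in mock and at 109, 123, 82.3 and 79.0 CPM in EDN1 overexpression (log2 fold change -0.23, SE 0.22). The 3 libraries of the second set were its 3 lowest, and within that set its log2 fold change was 0.08. ETV5 was at 128, 158, 158 and 149 CPM in mock and at 101, 144, 119 and 170 CPM in EDN1 overexpression (log2 fold change -0.15, SE 0.18), with overlapping groups. Neither passed the test.

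Of the 5 further targets, 4 had negative log2 fold changes and 0 passed the test. MYC, the growth-promoting transcription factor, was at 67.2, 53.6, 54.4 and 61.3 CPM in mock and at 29.2, 53.3, 26.9 and 56.7 CPM in EDN1 1 to 4. EDN1 1 and EDN1 3 lay far below mock, and EDN1 2 and 4 near it. For MYC the groups differed by -0.51 on the log2 scale (SE 0.25, 95% interval -1.06 to 0.04), with -0.51 and -0.56 within the sets. EPHA2, an ephrin receptor gene and ERK target, was at 322, 227, 238 and 159 CPM in mock and at 124, 307, 67.7 and 240 CPM in EDN1 overexpression, with EDN1 1 and EDN1 3 again the lowest. Its log2 fold change was -0.36 (SE 0.40), -0.72 without EDN1 2 and -0.08 without EDN1 3. MCL1, a survival gene of the BCL2 family with a short-lived mRNA, was at 1248, 722, 1173 and 723 CPM in mock and at 754, 1078, 546 and 605 CPM in EDN1 overexpression (log2 fold change -0.37, SE 0.26).

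SRF, serum response factor itself, was at 260, 189, 218 and 212 CPM in mock and at 263, 208, 285 and 216 CPM in EDN1 overexpression. Its highest libraries were EDN1 3 and EDN1 1, where many other members were low, and its log2 fold change was 0.15 (SE 0.16, 95% interval -0.21 to 0.50). PHLDA1, an early response gene linked to apoptosis, was at 2455, 743, 1632 and 1576 CPM in mock and at 1413, 1685, 1677 and 1198 CPM in EDN1 overexpression. Mock 1 and mock 2 held its highest and lowest values, 3.30-fold apart, and all EDN1 libraries lay between them. PHLDA1 differed by -0.10 on the log2 scale (SE 0.30), and it was 0.18 without mock 1 and -0.34 without mock 2.

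**Figure D5:**
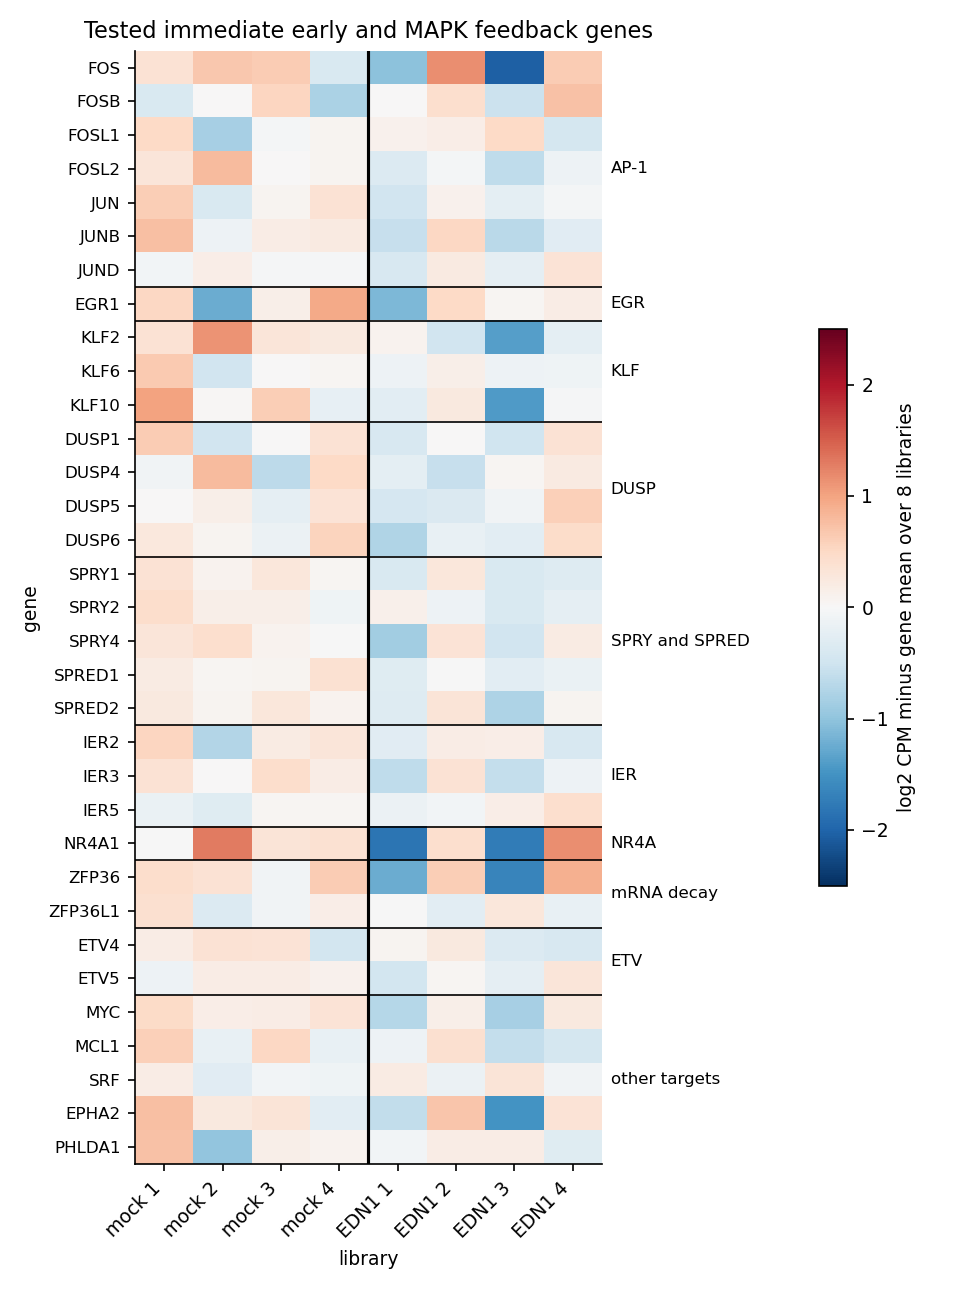
Log2 CPM of the 33 tested members (rows, by gene group) in the 8 libraries (columns), centred on each gene's mean, with red above and blue below it. FOS, KLF10, NR4A1, ZFP36 and EPHA2 are darkest blue in EDN1 3, EDN1 1 or both, and EGR1 and PHLDA1 are darkest blue in mock 2 (for EGR1 nearly as dark in EDN1 1).

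The median member differed more between libraries of 1 group than the median gene, though not every member did. The median within-group SD of log2 CPM of the members was 0.41 (percentile 67.9), against 0.32 over all tested genes. SPRED1, SRF, IER5, SPRY2, SPRY1, ETV5, JUND, ZFP36L1 and FOSL2 lay below the median of all tested genes, from percentile 7.70 (SPRED1) to 49.0 (FOSL2). NR4A1 (1.15), FOS (1.10), ZFP36 (0.93), EGR1 (0.83) and EPHA2 (0.75) had the largest, at percentiles 99.1, 98.9, 97.6, 96.1 and 94.2 of all tested genes. Counting error adds to the SD of the rarely counted FOS, NR4A1 and ZFP36, while EGR1 and EPHA2 had at least 306 and 772 counts in every library. Median SDs of the members were 0.37 in mock and 0.40 in EDN1 overexpression, against 0.30 and 0.32 over all tested genes.

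The kinases and nuclear factors that act before these genes were compared from lists of 59 genes, of which 56 were tested and 0 passed the test. Negative log2 fold changes were seen in 34 of the 56, against 49.7% of all tested genes, and the median was -0.03. Among receptors and adaptors 11 of 16 were negative, with GRB2 at -0.07 (SE 0.13) and ERBB3 at -0.30 (SE 0.21). Among RAS and RAF genes 7 of 11 were negative, with NRAS at -0.01 (SE 0.19). Among MEK, ERK and RSK genes 4 of 9 were negative, with MAP2K2, which encodes MEK, at 0.03 (SE 0.13) and the RSK gene RPS6KA3 at -0.16 (SE 0.20). The median log2 fold changes of these lists, -0.03, -0.04 and 0.02, were nearer to 0 than the -0.31 of the members. The lists described next had medians of -0.01 (JNK and p38) and -0.12 (factors that bind immediate early promoters). Differences between lists were not tested.

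Among JNK and p38 genes 5 of 9 were negative, with MAPKAPK2 at -0.13 (SE 0.17) and MAP2K3 at 0.17 (SE 0.18). Among the factors that bind the promoters of immediate early genes 7 of 11 were negative, with ETS2 at -0.36 (SE 0.23) and ELK3 at 0.24 (SE 0.21). The 4 EDN1 libraries lay above the 4 mock libraries in 2 of the 56 genes, against 1.38% of all tested genes. These were ELK1, an ETS partner of serum response factor, and MAP2K6, a p38 kinase kinase gene, both named after their values were seen. ELK1 was at 9.21, 9.51, 12.2 and 9.67 CPM in mock and at 15.2, 15.4, 13.2 and 14.9 CPM in EDN1 overexpression, a log2 fold change of 0.53 (SE 0.17). MAP2K6 was at 3.36, 5.19, 3.36 and 4.98 CPM in mock and at 11.4, 5.44, 7.63 and 5.54 CPM in EDN1 overexpression (log2 fold change 0.84, SE 0.30). Both had an adjusted p of 0.9999 in edgeR.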

How the data were processed

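The authors deposited 1 table of raw read counts per gene, with 1 column for each of the 8 libraries and a gene length, which was not used. Per the labels' protocols, total RNA was made into libraries with Lexogen's Quant-Seq kit. Per the submitters' processing notes, Bowtie2, edgeR and the build hg19 were used, with no version. How reads were counted, and whether by strand, is not given in the sources used here. In GENCODE 29, exons of 8 members (DUSP6, EGR3, ETV4, IER2, IER3, JUNB, NR4A1 and PHLDA1) overlap exons on the other strand, for example JUNB with HOOK2. If the counting ignored the strand, reads of such pairs cannot be told apart.

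Groups came from sample titles. The 25737 rows were summed by symbol, leaving MARCH1 and MARCH2 rows apart. Genes were filtered with filterByExpr (minimum count 10), scaled by TMM and tested with edgeR 4.0.16 (R 4.3.3) by the quasi-likelihood test with group as the only term, with Benjamini-Hochberg adjustment over 12577 genes and a threshold of 0.05. Standard errors are the fold change over the square root of F. Centred values use log2 CPM with a prior count of 2. The code was tested on simulated data. Alternatives were other scalings and filters, DESeq2 1.42.0, limma 3.58.1 voom, the replicate number as a block, the library sets, rows as deposited, and leaving out each library.

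Members and lists were chosen with earlier results of these data known. By the rule for named genes, library-by-library values are given for the up to 3 members per gene group with the highest mean CPM, for members whose groups do not overlap and for MYC. FOS and EPHA2 were added after their values were seen. Pathway genes named are the 2 with the highest mean CPM per list, of which 1 is not reported here.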

Additional observations from a re-analysis of the deposited data

Results flagged for a closer look

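In 3 of the 66 sets of 4 libraries examined (33 members in each group), 1 library lay far from the other 3 by Dixon's ratio of the gap to the range, where chance gives about 1 in 20, or 3.3. SPRY1 was at 54.7 CPM in EDN1 2 and at 34.5 to 35.7 CPM in the other EDN1 libraries (ratio 0.94). KLF6 was at 513 CPM in EDN1 2 and at 420 to 428 CPM in the other EDN1 libraries (ratio 0.914). KLF2 was at 3.83 CPM in mock 2 and at 2.00 to 2.19 CPM in the other mock libraries (ratio 0.901).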

How the results depend on the processing

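No member passed the threshold over all genes under any of the 20 alternatives run, each of which gave 1 gene (EDN1) over all genes except DESeq2, which gave 3. The number of members with negative fold changes ran from 26 to 29 when single libraries were left out, and their median log2 fold change from -0.44 to -0.19. Of 654 member fold changes under alternatives, 630 kept their sign. The replicate number as a block left 1 gene and 0 members called, with 29 negative members and 550 genes at an unadjusted p under 0.05 in place of 359. Same-numbered libraries did not deviate together in every pair (r = 0.48, 0.15, -0.15 and 0.53), and not every library correlated best with its own number, so the numbers are not taken to pair the libraries.

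JUND, at 0.00, changed sign most often, to -0.0289 with limma voom, -0.0287 with the replicate block, -0.0167 with the library set as a term, -0.0869 in the first set alone and -0.0017 without the filter. PHLDA1 was 0.0133 with limma voom. In the second set alone FOS was 0.19 and ETV4 0.0849. When single libraries were left out, JUND ran from -0.13 to 0.12, KLF6 from -0.31 to 0.077, ZFP36L1 from -0.21 to 0.0401, PHLDA1 from -0.34 to 0.18, FOSL1 from -0.0752 to 0.34, EGR1 from -0.56 to 0.0343, DUSP5 from -0.37 to 0.0253 and FOS from -0.88 to 0.14. With library totals only, the median of all genes was 0.04 and that of the members -0.28. Depth limits FOS, FOSB, KLF2, NR4A1 and ZFP36 most.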

Other observations

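The members did not vary as 1 block. By average linkage on the correlation of log2 CPM over the 8 libraries, the 33 members split into 27 and 6, a grouping made from these values and given with no test. The 27, with FOS, JUNB, EGR1, KLF2, KLF10, NR4A1, ZFP36, MYC, EPHA2 and all tested DUSP, SPRY and SPRED genes, had mean centred log2 CPM of 0.31, 0.17, 0.17 and 0.13 in mock 1 to 4 and of -0.49, 0.19, -0.65 and 0.18 in EDN1 1 to 4. The 6 were FOSL1, KLF6, IER2, ZFP36L1, SRF and PHLDA1, with 0.50, -0.61, 0.03 and 0.09 in mock and -0.03, 0.05, 0.22 and -0.25 in EDN1 overexpression. On average the 6 were thus lowest in mock 2 and highest in mock 1, and the 27 lowest in EDN1 3 and EDN1 1. Not all of the 27 followed this: EGR1, DUSP4 and IER5 lay above their own means in EDN1 3. FOSB, KLF2, SPRY2 and ETV4 did so in EDN1 1. Mock 2 had the smallest total count, 8409173. EDN1 2 and mock 3, where the 6 were at 0.05 and 0.03, had 8571252 and 8735340. A link of these levels with depth was not tested.

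Over the 528 pairs of members the median Pearson correlation was 0.36 (n = 8 libraries, which share depth and group), 57 pairs were above 0.8 and 151 below 0. The highest were FOS with EPHA2 (0.95), SPRED2 with EPHA2 (0.95) and IER2 with PHLDA1 (0.94), and the lowest was NR4A1 with SRF (-0.88).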
